A study of Mus musculus with 14 samples.

Results

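The transcripts described here encode the nuclear subunits of respiratory complexes II to V in mouse liver. Members were every gene of the array whose symbol marks a succinate dehydrogenase subunit (Sdha to Sdhd), a complex III subunit (Uqcr genes and Cyc1), cytochrome c (Cycs), a cytochrome c oxidase subunit (Cox4 to Cox8) or an ATP synthase subunit (Atp5). The rule found 48 genes on 96 probe sets, out of 18193 genes with a probe set of their own. Where a gene had several probe sets, the one with the highest mean log2 signal was used. Of the 48 members, 46 lay among the 11308 genes with enough signal to be tested, and Cox7b2 and Cox8b did not. By complex the tested members numbered 4 in complex II, 9 in complex III, 14 in complex IV and 17 in complex V, together with Cycs and Cox7a2l. Cox7a2l matches the name rule but encodes a factor that joins complexes III and IV into supercomplexes, so it is given on its own.

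Liver RNA came from 14 male CBA/J mice, an inbred strain, with 1 animal per Affymetrix array. All animals were housed singly and received 84 kcal per week of a purified diet of the AIN93M type. From 2 months of age 7 mice ate the control diet and 7 ate a diet with krill powder extract, and livers were taken at 5 months, after 3 months of feeding. Total protein and total lipid were matched between the diets, while the make-up of amino acids and fatty acids was not. In RNA of whole liver, fewer cells of a type and less RNA per cell cannot be told apart.

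The respiratory chain passes electrons from nutrients to oxygen across the inner mitochondrial membrane and pumps protons as it does so. Complex II takes electrons from succinate and is also an enzyme of the Krebs cycle, complex III passes them to cytochrome c, complex IV hands them to oxygen, and complex V, the ATP synthase, uses the proton gradient to make ATP. Hepatocytes are rich in mitochondria and rely on this chain for gluconeogenesis, urea synthesis and fat oxidation. All subunits of complex II and most subunits of the others are encoded in the nucleus, whereas cytochrome b of complex III, the catalytic core of complex IV and part of complex V come from mitochondrial DNA.

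Array quality moved with diet. The level of the control RNA spiked in at hybridisation averaged 12.93 ± 0.22 in the 7 control arrays and 13.72 ± 0.62 in the 7 krill arrays (mean ± SD of log2 signal, exact permutation test, two-sided, p = 0.0128, adjusted p = 0.016 over 5 measures). The log2 ratio of 3' to 5' signal of the actin and pyruvate carboxylase controls, a measure of RNA quality, averaged 1.85 ± 0.286 over the 7 control arrays and 2.84 ± 0.277 over the 7 krill arrays (mean ± SD), with no overlap (exact permutation test, two-sided, p = 0.000583, adjusted p = 0.000971). Krill replicates 2, 4, 5 and 7 had spike-in levels above every control array, so the calls of the members are also given without them. That fit does not remove the difference in 3' to 5' signal. Krill replicates 1, 3 and 6 had log2 ratios of 2.56, 2.44 and 3.00, above the highest control array at 2.28. All 7 hepatocyte markers examined (Alb, Apoa1, Ttr, Tat, Cps1, Cyp2e1 and Fgb) passed the signal filter. With diet 4 of them were called higher and 1, Tat, lower at -1.86, and of 5 tested Kupffer cell markers 2 were higher and 2 lower. Without krill replicates 2, 4, 5 and 7, 0 hepatocyte markers were higher and 0 lower, and 2 Kupffer cell markers higher and 1 lower. Quantile normalization and scaling on the spike-in signal each gave 0 hepatocyte markers higher and 3 lower. Centring arrays on their medians gave 2 higher and 1 lower. What part array quality has in any diet difference given here was not tested.

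Krill feeding went with higher signal for 9 of 14 tested subunits of complex IV and 10 of 17 of complex V. Signal was lower for 3 of the 4 subunits of complex II. Of the 46 tested members 25 were higher, 6 lower and 15 did not pass (limma, Benjamini-Hochberg adjusted p under 0.05). Among all tested genes 47.7% were called, 22.9% higher and 24.8% lower. Changes are krill minus control on the log2(signal + 16) scale, where signal is the deposited intensity, so those of dim genes are understated. The median change was 0.70 over the members and 0.04 over all tested genes. Without 5 isoforms known from other tissues, 21 of 41 members were higher and 6 lower, with a median of 0.55. With krill replicates 2, 4, 5 and 7 left out, 19 members were higher and 1 lower, when 32.3% of all genes were called, 12.7% higher and 19.6% lower. All 19 had also been called higher with all arrays. In complex IV 3 of 14 members were then higher and 1 lower, and in complex V 10 of 17 were higher.

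The scaling of the arrays and the quality measures bear on these counts. After quantile normalization 19 members were higher and 13 lower, when 46.7% of all genes were called, 24.3% higher and 22.4% lower. With arrays centred on their medians 17 were higher and 8 lower, when 41.8% of all genes were called, 8.85% higher and 33.0% lower. Scaling on the spike-in signal gave 10 higher and 13 lower, against 51.1% called, 2.97% higher and 48.2% lower. The median of all tested genes was 0.03, -0.36 and -0.71 under these 3 scalings. Of the 25 members called higher 21 kept a positive change under all 3, the exceptions being Cox6a1, Cox6b1, Atp5g1 and Atp5j. All 6 called lower stayed negative, but only quantile normalization could have turned them. Centring and spike-in scaling lower the change of every gene of strong signal, by 0.40 and 0.79. The 10 called higher under spike-in scaling were Sdhb, Uqcrq, Cycs, Cox4i1, Cox6c, Atp5c1, Atp5j2, Atp5k, Atp5l and Atp5md, and all 10 were also called higher under the other 2. Once the spike-in level was a term of the model, 15 members were higher and 0 lower, when 17.5% of all genes were called, 6.99% higher and 10.5% lower (18 and 0 members at an unadjusted p under 0.05). With the 3' to 5' index in the model, which does not overlap between diets, limma called 0 of the 46 members and 0 of 11308 genes, and 7 members and 1873 genes had an unadjusted p under 0.05.

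**Figure D1:**
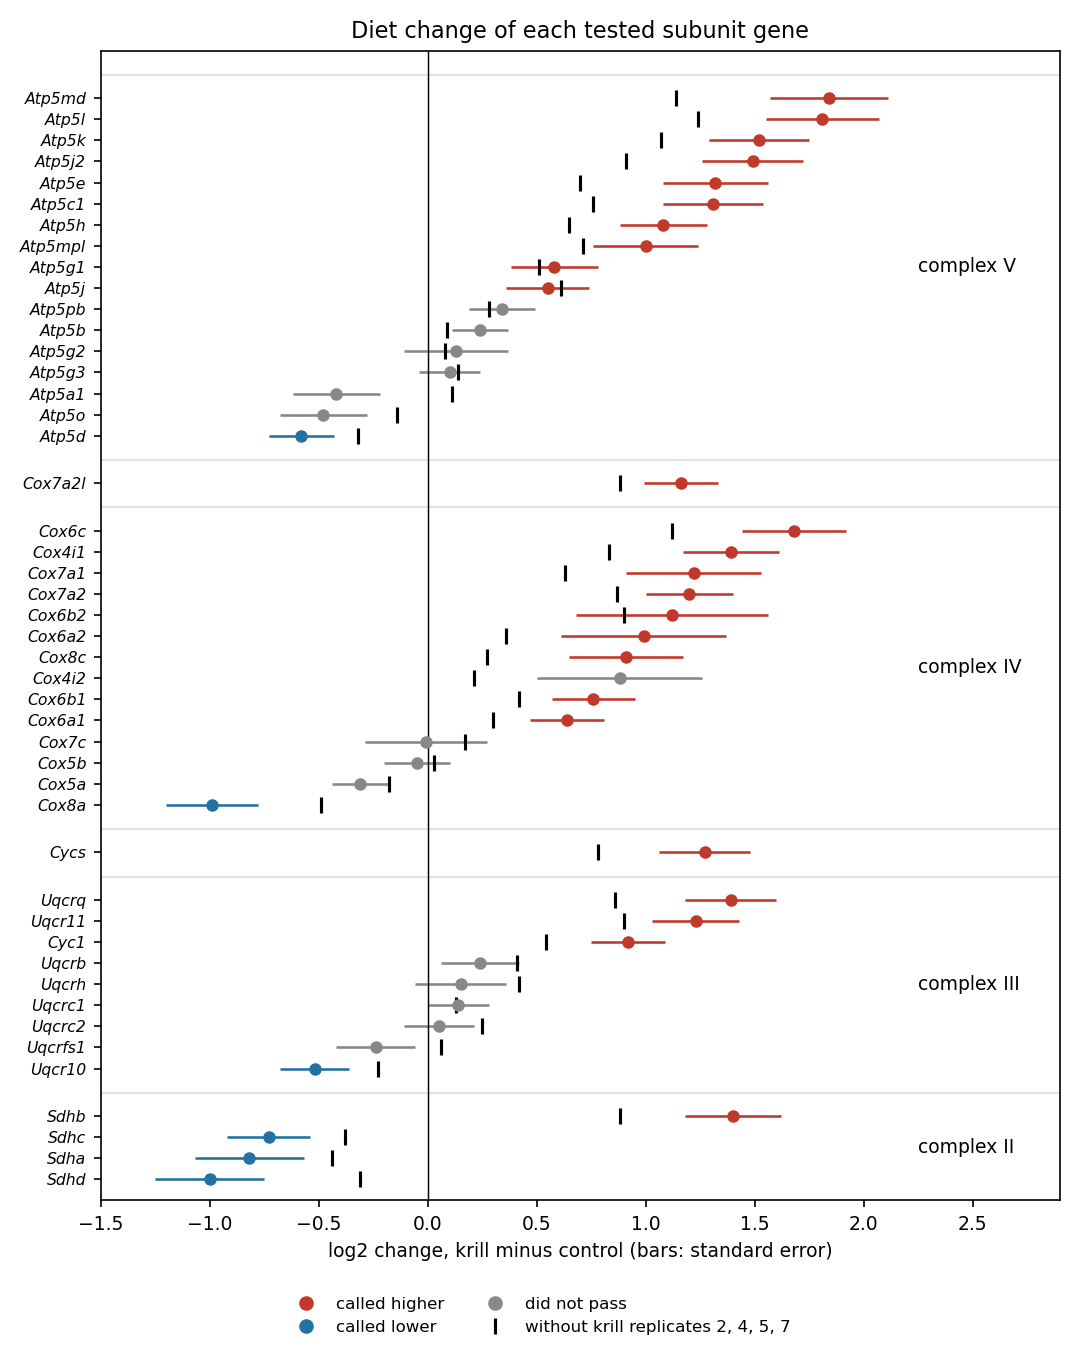
Log2 change (krill minus control, log2(signal + 16) scale) of the 46 tested members, grouped by complex, with the limma standard error as bars and 7 arrays per diet. Red points were called higher, blue lower and grey did not pass, and black ticks give the change without krill replicates 2, 4, 5 and 7. Changes ran from -1.0 for Sdhd to 1.84 for Atp5md, and most ticks lie closer to 0 than their points; among the members called higher, Cox6a1, Cox6b1, Atp5g1 and Atp5j turned negative under spike-in scaling.

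In complex II the subunits parted. Sdhb, the iron-sulfur subunit, rose, while Sdha, the flavoprotein that oxidises succinate, and the membrane anchors Sdhc and Sdhd fell. Sdhb signal had a lowest, median and highest value of 16910, 23070 and 29810 in control livers and of 32340, 64860 and 97890 in krill livers. The groups did not overlap, and the mean rose from 22840 ± 4284 to 63010 ± 22810 (SD, n = 7 each), a log2 difference of 1.40 (SE 0.22, limma adjusted p = 9.05e-05).

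Sdha ran from 9158 (lowest) over 10940 (median) to 11790 (highest) in control and from 2818 over 5286 to 11200 in krill livers, so 1 krill array stood above the control mean. Its log2 change was -0.82 (SE 0.25, limma adjusted p = 0.0128). Its 3 probe sets past the filter all fell, by 0.82, 0.91 and 1.97 on the log2 scale, and by a linear mean the one at -1.97 would have stood for the gene. Sdhd ran from 10100 over 11140 to 12560 in control and from 2382 over 5689 to 10140 in krill livers, a log2 difference of -1.0 (SE 0.25, limma adjusted p = 0.004). Sdhc had a median of 10580 in control and 7057 in krill livers and changed by -0.73 (SE 0.19, limma adjusted p = 0.00492). In both anchors every krill array lay below the control mean. A second, dimmer probe set of each anchor did not pass, at -0.26 for Sdhc and -0.21 for Sdhd.

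With krill replicates 1, 3 and 6 alone against control, Sdhb stood at 0.88 and passed (limma adjusted p = 0.0025). In that fit Sdha, Sdhc and Sdhd stood at -0.44, -0.38 and -0.31 and no longer passed (limma adjusted p = 0.0881, 0.0565 and 0.07). A log2 difference between subunits of strong signal on the same array is not altered by centring or spike-in scaling, which shift a whole array. Quantile normalization can alter it, and the part of the 3' to 5' signal in it was not tested. With the 3' to 5' index in the model Sdhb stood at 0.93 and Sdha, Sdhc and Sdhd at -0.68, 0.12 and 0.01. None of the complex II genes passed with that index in the model. The difference of Sdhb minus Sdhd lay between 0.73 and 1.42 in control arrays, and between 1.67 and 5.36 in krill arrays. All 7 krill arrays exceeded every control array, including replicates 1, 3 and 6, at 1.67 to 2.52. For Sdhb minus Sdhc the control range was 0.65 to 2.02 and the krill range 2.06 to 4.65. For Sdhb minus Sdha 6 of 7 krill arrays stood above all controls, with ranges of 0.67 to 1.68 and 1.53 to 5.12. These pairs, and those of complexes III, IV and V below, were picked after the subunit values were seen, so no test is given.

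**Figure D2:**
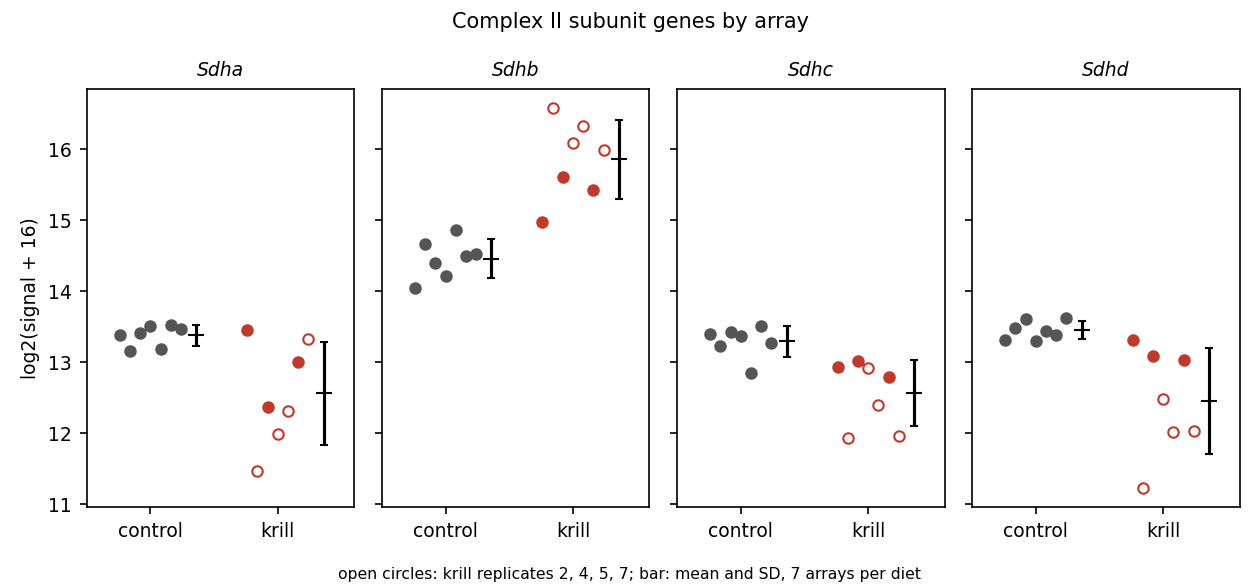
Signal of the 4 complex II genes on each array as log2(signal + 16), with the mean and SD of 7 arrays per diet as a bar beside the points and krill replicates 2, 4, 5 and 7 as open circles. The krill points of Sdhb lie above all control points, and those of Sdha, Sdhc and Sdhd reach below them, farthest on the open circles.

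Because complex II subunits moved apart, the stretch around the transcription start is shown for the 3 of them that the promoter table lists. Each covers 250 bases before and 50 after the start in RefSeq's GRCm38.p6. Capitals mark matches, on either strand, to the NRF1 motif (GCGCA and GCGC with any 1 base between them), the ETS motif CCGGAAG and the CCAAT box. NRF1 and the ETS factor GABP are known as regulators of nuclear genes of the respiratory chain.
Sdhb, chr4:140961021-140961320, plus strand: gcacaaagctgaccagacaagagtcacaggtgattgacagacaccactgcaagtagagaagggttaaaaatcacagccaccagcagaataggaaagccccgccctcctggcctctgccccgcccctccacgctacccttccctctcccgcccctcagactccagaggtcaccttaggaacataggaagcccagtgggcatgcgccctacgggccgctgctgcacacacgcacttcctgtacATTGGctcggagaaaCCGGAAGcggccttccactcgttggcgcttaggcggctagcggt
Sdha, chr13:74350191-74350490, minus strand: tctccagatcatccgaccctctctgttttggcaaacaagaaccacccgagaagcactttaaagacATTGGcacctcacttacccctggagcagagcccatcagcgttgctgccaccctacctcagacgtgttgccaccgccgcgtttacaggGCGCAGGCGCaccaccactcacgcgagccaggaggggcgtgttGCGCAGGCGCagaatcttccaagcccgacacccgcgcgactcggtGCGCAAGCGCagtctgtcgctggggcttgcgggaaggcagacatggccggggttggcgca
Sdhd, chr9:50603800-50604099, minus strand: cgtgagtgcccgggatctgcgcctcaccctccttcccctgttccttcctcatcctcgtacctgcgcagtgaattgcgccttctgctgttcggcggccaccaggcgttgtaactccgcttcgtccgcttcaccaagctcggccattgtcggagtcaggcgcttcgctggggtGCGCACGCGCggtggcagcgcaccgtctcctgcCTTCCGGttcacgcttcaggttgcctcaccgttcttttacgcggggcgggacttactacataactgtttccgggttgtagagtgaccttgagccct
Sdha, which fell, held 3 NRF1 matches and 1 CCAAT box. Sdhd, which also fell, held 1 NRF1 and 1 ETS match, and Sdhb, which rose, 1 ETS match and 1 CCAAT box.

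The table lists 36 of the 48 members. The NRF1 motif was found in 9 of these 36 (25%) and in 6.6% of the 17491 listed promoters of protein-coding genes. The ETS motif was found in 12 of 36 (33.3%) against 11.9%, and CCAAT in 20 of 36 (55.6%) against 39.0%. The GC box GGGCGG was found in 41.7% against 46.3%, and the YY1 motif AAGATGGC in 2 of 36 against 3.22%. Among the 18 listed members called higher, 3 held the NRF1 motif, 9 the ETS motif and 13 CCAAT. Among the 5 called lower the counts were 2, 2 and 3, and among the 11 that did not pass they were 4, 1 and 3. Motifs were counted separately on both strands, so matches of different motifs can overlap, and GC boxes are not in capitals above. A match describes letters in this window and is no measure of binding.

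Complex III was mixed. Of 9 tested members 3 were higher, 1 lower and 5 did not pass, a called share near the 47.7% of all tested genes, with a median log2 change of 0.15. Cyc1, the cytochrome c1 subunit that hands electrons to cytochrome c, ran from 14810 over 16700 to 20250 in control and from 20840 over 34570 to 45570 in krill livers. The groups did not overlap, and the log2 change was 0.92 (SE 0.17, limma adjusted p = 0.000342). The small subunits Uqcrq and Uqcr11 were higher too, at 1.39 (SE 0.21) and 1.23 (SE 0.20), again with no overlap. Uqcrq rose from 23360 ± 4404 to 63690 ± 21510 (SD, n = 7 each).

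Uqcr10, another small subunit, fell from 8287 ± 897 to 5903 ± 1387 (SD, n = 7 each), a log2 difference of -0.52 (SE 0.16, limma adjusted p = 0.0153). All 3 of its probe sets were called lower, from -0.52 to -0.62. The 5 members that did not pass were the core proteins Uqcrc1 and Uqcrc2, the Rieske iron-sulfur protein Uqcrfs1, and Uqcrb and Uqcrh, with changes of -0.24 to 0.24. On each array the log2 difference of Uqcrq minus Uqcr10 was 1.24 to 1.90 in control and 2.39 to 4.40 in krill livers, with krill replicates 1, 3 and 6 at 2.39 to 2.76. With krill replicates 1, 3 and 6 alone, Cyc1, Uqcr11 and Uqcrq stood at 0.54, 0.90 and 0.86 and passed, and Uqcr10 stood at -0.23 and did not (limma adjusted p = 0.196). The complex's median was 0.41 in that fit, and it turned to -0.09 with quantile normalization, -0.25 with centring and -0.64 with spike-in scaling. Its calls were 3 higher and 2 lower, 3 and 1, and 1 and 2 under these 3 scalings. In the same fits 24.3%, 8.85% and 2.97% of all genes were higher and 22.4%, 33.0% and 48.2% lower.

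Cytochrome c and Cox7a2l were higher. Cycs, the soluble carrier between complexes III and IV, ran from 25000 over 29170 to 48130 in control and from 48910 over 91780 to 113400 in krill livers. Its log2 change was 1.27 (SE 0.21, limma adjusted p = 0.000152), and its 3 probe sets past the filter were all called higher, from 1.11 to 1.56. Cox7a2l rose from 6254 ± 1075 to 14200 ± 3736 (SD, n = 7 each), at 1.16 (SE 0.17, limma adjusted p = 6.44e-05), and its 3 probe sets ranged from 1.16 to 1.39. Neither gene's groups overlapped. With krill replicates 1, 3 and 6 alone they stood at 0.78 and 0.88 and passed. Under spike-in scaling Cycs passed at 0.48 and Cox7a2l did not, at 0.37 (limma adjusted p = 0.224).

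In complex IV several subunits of the liver form rose, and Cox8a fell. Of 14 tested members 9 were higher, 1 lower and 4 did not pass, with a median of 0.90. Over all tested genes the shares were 22.9% higher and 24.8% lower. Leaving out 5 isoforms known from other tissues, 9 members remain, of which 5 were higher and 1 lower, with a median of 0.64. Under quantile normalization, centring and spike-in scaling the 14 members had 5 higher and 3 lower, 4 and 2, and 2 and 3, and the median of the 9 stood at -0.00, 0.24 and -0.14. In these fits 24.3%, 8.85% and 2.97% of all genes were higher and 22.4%, 33.0% and 48.2% lower. Cox6c had the largest rise. Its signal ran from 21090 over 30960 to 42710 in control and from 47290 over 116400 to 135900 in krill livers, a log2 difference of 1.68 (SE 0.24, limma adjusted p = 4.56e-05). Cox4i1, the widespread form of subunit IV, rose from 29420 ± 4079 to 82060 ± 31430 (SD, n = 7 each), at 1.39 (SE 0.22). Cox7a2, the liver form of subunit VIIa, rose from 37960 ± 9048 to 88420 ± 26650 (SD, n = 7 each), at 1.20 (SE 0.20). In these 3 genes every krill array lay above every control array. Cox6a1 and Cox6b1 were called higher at 0.64 and 0.76, with overlapping groups, but stood at -0.14 and -0.03 under spike-in scaling.

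Cox8a, the liver form of subunit VIII, ran from 5795 over 6544 to 7302 in control and from 1565 over 3540 to 4949 in krill livers. The groups did not overlap, and the log2 change was -0.99 (SE 0.21, limma adjusted p = 0.00123), with its other probe set past the filter at -1.11. Cox5a and Cox5b, the matrix-side subunits, stood at -0.31 and -0.05 and did not pass, although Cox5a was called lower without krill replicate 1 (-0.35, limma adjusted p = 0.0309). The 2 further Cox5a probe sets were called lower, at -0.44 and -0.63. Cox7c was read only by dim probe sets, at 147 ± 35.3 (SD, n = 7) in control livers, and did not pass at -0.01, while its second probe set was called higher at 0.92. The log2 difference of Cox6c minus Cox8a on the same array was 1.53 to 2.86 in control and 3.52 to 6.25 in krill livers, and 3.52 to 4.10 in krill replicates 1, 3 and 6. Neither gene overlapped between diets and they moved in opposite directions, so this difference had to separate the diets. With krill replicates 1, 3 and 6 alone, Cox6c, Cox4i1 and Cox7a2 stood at 1.12, 0.83 and 0.87 and passed. Cox8a stood at -0.49 and was the only member still called lower (limma adjusted p = 0.00995). Cox6a1 and Cox6b1 stood at 0.30 and 0.42 and no longer passed. Of the 14 tested members 3 were higher and 1 lower in that fit, with a median of 0.33, where 12.7% of all genes were higher and 19.6% lower.

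Isoforms known from other tissues had low signal. Cox6a2 and Cox7a1 belong to heart and skeletal muscle, Cox4i2 to lung, and Cox6b2 and Cox8c to testis. Control means were 87.3 for Cox6a2, 105 for Cox7a1, 105 for Cox4i2, 80.8 for Cox6b2 and 428 for Cox8c. Cox7a1, Cox6b2, Cox6a2 and Cox8c were called higher, at 1.22, 1.12, 0.99 and 0.91, and Cox4i2 was not, at 0.88 (limma adjusted p = 0.0638). Every one of the 5 overlapped between diets. The signal filter used the mean over all 14 arrays, at a level of 6.87 on the log2 scale. Control means of Cox6a2, Cox6b2 and Cox4i2 lay below that level, at 6.62, 6.33 and 6.85. Their krill means lay above it, at 7.61, 7.45 and 7.73. Cox6a2, Cox6b2 and Cox4i2 were thus tested only through their krill signal, so their rises are no separate support. Among all 3473 tested genes with a mean log2 signal under 8, 22.6% were called higher and 12.3% lower, with a median of 0.37. All of these isoforms but Cox8c, at a mean log2 signal of 9.22, lie in that range. In a comparison of krill replicates 1, 3 and 6 alone that median was -0.07 and none of the 5 isoforms passed (log2 changes of 0.21 to 0.90 and limma adjusted p from 0.146 to 0.723). Leaving out 1 array ended the call of Cox6a2 for 9 of the 14 arrays (control replicates 3, 5, 6 and 7 and krill replicates 2, 3, 4, 5 and 7), with changes of 0.83 to 1.03. It ended that of Cox6b2 for 8 (control replicates 1, 3, 5 and 6 and krill replicates 2, 3, 4 and 7), with changes of 0.86 to 1.13. Without krill replicate 1 or 6 Cox4i2 was called higher, at 1.03 and 1.11. Cox8b and Cox7b2 lay below the filter, with control means of 62.5 and 17.8 and krill means of 61.0 and 70.4. Of 9 striated muscle markers 2, Ckm and Actc1, passed the signal filter, and the summed signal of the 9 was 300.5 to 735 in control and 364 to 1444 in krill arrays. Their part in the signal of the muscle isoforms was not tested.

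Complex V showed its 4 largest rises in small subunits of the membrane sector. Of 17 tested members 10 were higher, 1 lower and 6 did not pass, with a median of 0.58. Over all tested genes the shares were 22.9% higher and 24.8% lower. All 5 small membrane subunits rose. Atp5md, a subunit linked to ATP synthase dimers, ran from 15120 over 22930 to 31100 in control and from 33400 over 96450 to 136900 in krill livers, a log2 difference of 1.84 (SE 0.27, limma adjusted p = 5.03e-05). Atp5l, the g subunit, ran from 9834 over 17410 to 25540 in control and from 28260 over 65520 to 97380 in krill livers, at 1.81 (SE 0.26, limma adjusted p = 4.62e-05). Atp5k and Atp5j2, the e and f subunits, rose by 1.52 (SE 0.23) and 1.49 (SE 0.23). In these 4 genes the diets did not overlap. Atp5mpl, the last of the 5, rose by 1.00 (SE 0.24) with some overlap. All 5 changes stayed positive under quantile normalization, centring and spike-in scaling, the lowest being 0.22 for Atp5mpl with spike-in scaling, where it no longer passed, as with centring at 0.60.

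The catalytic head gave a mixed picture, with 2 of 5 subunits higher and 1 lower. The alpha and beta subunits, Atp5a1 and Atp5b, which hold the catalytic sites, did not pass, at -0.42 and 0.24 (limma adjusted p = 0.0875 and 0.137). Atp5a1 was called lower under quantile normalization at -0.74 and spike-in scaling at -1.20, and Atp5b at -0.36 and -0.55. The head then had 2 higher and 3 lower, and 1 higher and 3 lower. Atp5b ran from 33850 over 35520 to 42010 in control and from 37120 over 42530 to 51050 in krill livers, a narrow shift with overlap. Without krill replicate 1 or 3 Atp5a1 was called lower, at -0.52 and -0.51, and without krill replicates 2, 4, 5 and 7 it stood at 0.11. The gamma subunit of the central shaft, Atp5c1, rose from 25160 ± 5176 to 65680 ± 25960 (SD, n = 7 each), at 1.31 (SE 0.23), though a dim second probe set was called lower at -0.63. Atp5e, the epsilon subunit, rose by 1.32 (SE 0.24). Atp5d, the delta subunit, ran from 14560 over 15380 to 17740 in control and from 7200 over 11440 to 13720 in krill livers. Its groups did not overlap, the log2 change was -0.58 (SE 0.15, limma adjusted p = 0.00492), and its other probe set fell by 1.53 on the log2 scale.

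The proton-carrying c ring is built from a single protein encoded by 3 genes. Atp5g1 was called higher at 0.58 (SE 0.20, limma adjusted p = 0.025), and Atp5g2 and Atp5g3 did not pass, at 0.13 and 0.10. The call of Atp5g1 ended without control replicate 1 (0.51, limma adjusted p = 0.0563), and its sign turned to -0.21 with spike-in scaling. In the peripheral stalk, which holds the head still, Atp5h was higher at 1.08 (SE 0.20) and Atp5j at 0.55 (SE 0.19), while Atp5pb and Atp5o stood at 0.34 and -0.48 and did not pass. The other probe set of Atp5o was called lower at -0.76, and that of Atp5pb stood at -0.21 and did not pass. The call of Atp5j ended without control replicate 1 or 4, at 0.48 and 0.49. Neither Atp5g1 nor Atp5j passed under quantile normalization (0.31 and 0.25), centring (0.18 and 0.15) or spike-in scaling (-0.21 and -0.24). Atp5o was called lower without control replicate 5, krill replicate 3 or krill replicate 6, at -0.54 to -0.56, and Atp5pb higher without control replicate 5 or krill replicate 2, at 0.41 and 0.40.

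When krill replicates 2, 4, 5 and 7 were left out, the same 10 complex V members were called higher, with a median of 0.61, and Atp5d stood at -0.32 and did not pass (limma adjusted p = 0.0508). Of all genes 12.7% were higher and 19.6% lower in that fit. Atp5md, Atp5l, Atp5k, Atp5j2 and Atp5mpl stood at 1.14, 1.24, 1.07, 0.91 and 0.71 and passed. The log2 difference of Atp5l minus Atp5b on the same array was -1.78 to -0.60 in control and -0.39 to 0.93 in krill livers, with all 7 krill arrays above all control arrays. For Atp5l minus Atp5d the ranges were -0.85 to 0.78 and 1.04 to 3.76, and krill replicates 1, 3 and 6 lay at 1.04 to 2.08. Atp5l and Atp5d each separated the diets, in opposite directions, so their difference had to separate them too. Atp5l minus Atp5a1 overlapped, at -1.22 to 0.03 in control and 0.02 to 3.09 in krill livers, with 6 of 7 krill arrays above all control arrays. Under quantile normalization, centring and spike-in scaling complex V had 8 higher and 5 lower, 7 and 2, and 5 and 5, and with spike-in scaling its median turned to -0.21. In these fits 24.3%, 8.85% and 2.97% of all genes were higher and 22.4%, 33.0% and 48.2% lower.

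**Figure D3:**
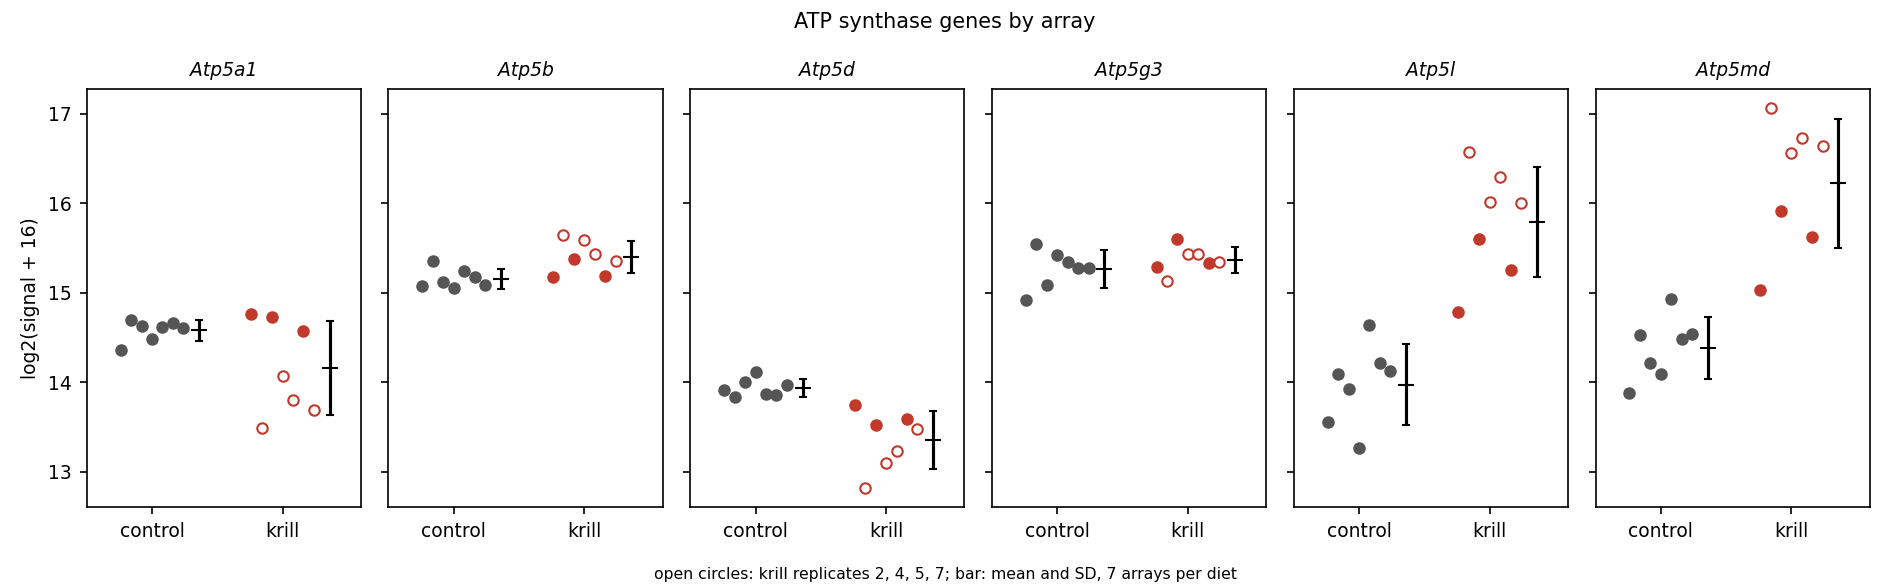
Signal of 6 ATP synthase genes on each array as log2(signal + 16), with the mean and SD of 7 arrays per diet as a bar and krill replicates 2, 4, 5 and 7 as open circles. Atp5l and Atp5md show krill points above all control points, Atp5d shows them below, and Atp5a1, Atp5b and Atp5g3 overlap between diets.

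Set side by side, the complexes differed in their medians, at -0.77, 0.15, 0.90 and 0.58 for complexes II, III, IV and V. These are descriptions of 4, 9, 14 and 17 genes, and the difference between complexes was not tested. Without the 5 isoforms known from other tissues complex IV stood at 0.64. It then stood at -0.00 with quantile normalization, 0.24 with centring and -0.14 with spike-in scaling. Of the 5, Cox6a2, Cox6b2 and Cox4i2 were tested only through their krill signal. The array ranges of complex IV given next include all 5. On single krill arrays the median of complex II against the control mean lay between -1.63 and -0.03, while control arrays ranged from -0.10 to 0.09. For complex III the krill range was -0.17 to 0.57, against -0.24 to 0.31 in controls, and 2 of 7 krill arrays stood above all controls. The krill range was 0.00 to 1.46 for complex IV and 0.36 to 1.56 for complex V, with 6 and 5 of 7 arrays above all controls. Replicates 1, 3 and 6 alone ranged from -0.40 to -0.03 in complex II, 0.29 to 0.52 in complex III, 0.00 to 0.81 in complex IV and 0.36 to 0.88 in complex V. Over all members 15 of 46 had every krill array above every control array, where 6.52% of all tested genes did, and 2 had every krill array below, where 7.61% did.

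**Figure D4:**
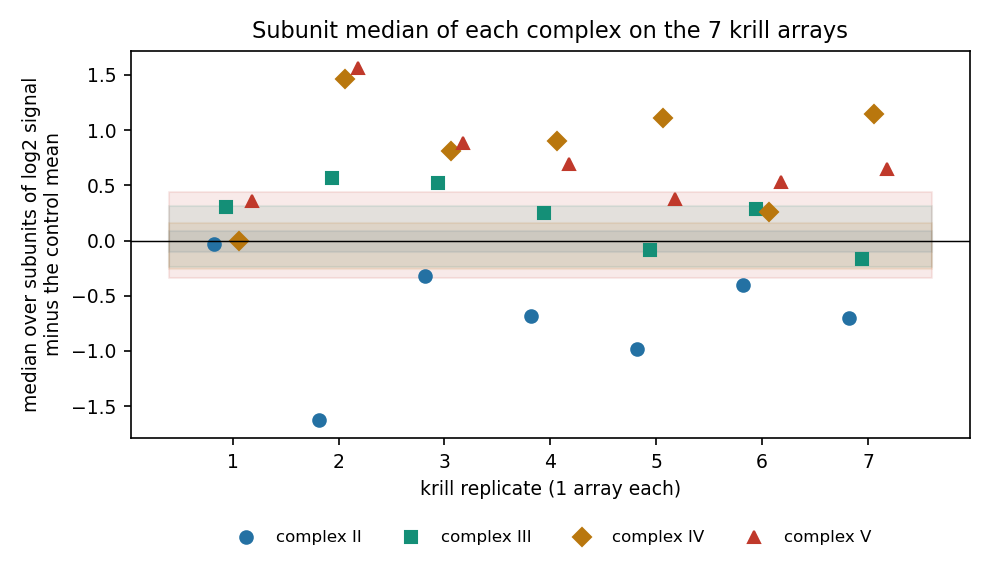
Median over the tested subunits of each complex of the log2 signal minus its control mean, for each of the 7 krill arrays. Shaded bands give the range of the same median over the 7 control arrays, in the colour of the complex. The complex IV median includes the 5 isoforms known from other tissues. Complex II lies at or below 0 on every krill array, lowest at -1.63 on replicate 2, and complexes IV and V lie at 0 or above; scaling on spike-ins turns the complex III and V changes negative.

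Most members belong to the genes with strong signal, where calls were more often higher than lower over all genes too. Of the 617 tested genes with a mean log2 signal of at least 13, a level chosen after the data were seen, 46.5% were called higher and 18.3% lower, with a median of 0.34 that turned to -0.03 after quantile normalization and stood at 0.32 without krill replicates 2, 4, 5 and 7. The 35 members in that range had 21 higher, 1 lower and a median of 0.76. Across all 46 members the signal of 11 was read by probe sets whose suffix (s_at or x_at) marks possible matches to other transcripts, and respiratory subunit genes have many pseudogenes, so those values are uncertain. Of the 26 members with several probe sets past the filter 18 had 1 shared call, and Atp5c1 alone had probe sets called in opposite directions.

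**Figure D5:**
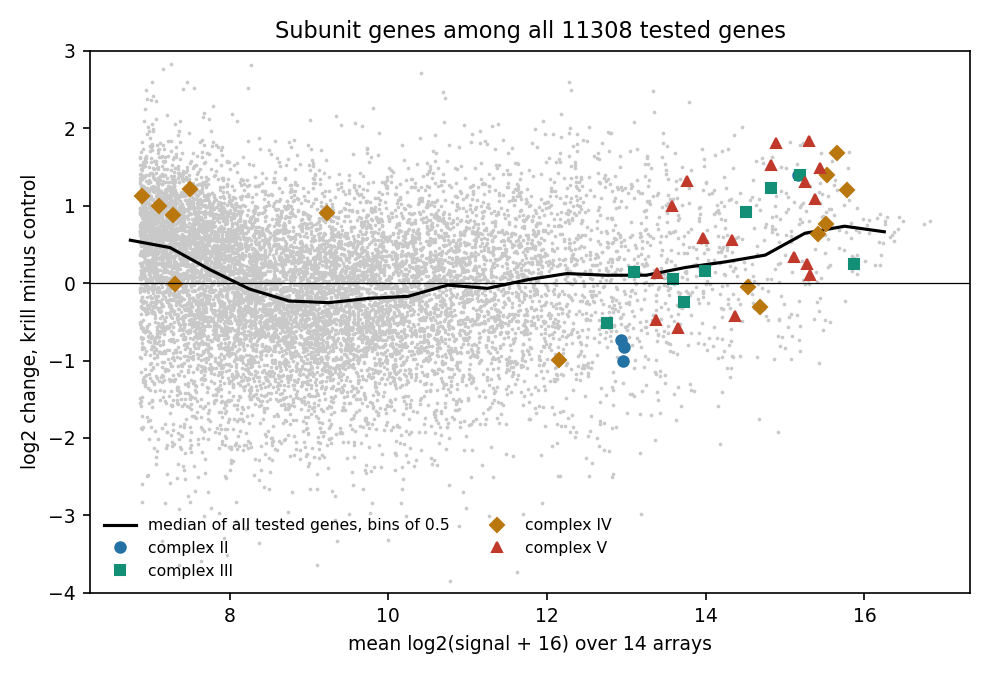
Log2 change (krill minus control) against mean log2(signal + 16) over the 14 arrays, for all 11308 tested genes in grey and the subunits of complexes II to V in colour. The black line is the median of all tested genes in bins of 0.5, and 9 genes lie outside the plotted range of -4 to 3. The line rises towards the strongest signals, where most members lie, and members spread on both sides of it.

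Other genes of the pathway also went both ways, as did all tested genes, of which 22.9% were higher and 24.8% lower. Complex I takes electrons from NADH. Of 33 tested genes listed for it by their Nduf symbols, 20 were higher, 6 lower and 7 did not pass, with a median of 0.79. Leaving out krill replicates 2, 4, 5 and 7 gave 21 higher and 3 lower, where 12.7% of all genes were higher and 19.6% lower. Under quantile normalization, centring and spike-in scaling the counts were 19 higher and 7 lower, 14 and 7, and 5 and 9. Shares of all genes were 24.3% higher and 22.4% lower, 8.85% and 33.0%, and 2.97% and 48.2%. Ndufs4 and Ndufb11, accessory subunits, stood at 1.53 each, and Ndufs3 and Ndufs1, subunits of the electron-carrying arm, at -1.35 and -1.23. Without krill replicates 2, 4, 5 and 7 those 4 genes stood at 1.35, 0.98, -0.41 and -0.31, and Ndufs1 no longer passed (limma adjusted p = 0.179). The only listed mitochondrially encoded transcript tested, ND5 of complex I, fell from 64730 ± 15180 to 33170 ± 14270 (SD, n = 7 each), at -1.03 (SE 0.23, limma adjusted p = 0.00152), and stood at -0.66 without those arrays (limma adjusted p = 0.0565).

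Of 35 tested assembly factors 13 were higher, 7 lower and 15 did not pass, with a median of 0.32. Among all tested genes 22.9% were higher and 24.8% lower, and a difference of the 35 from these shares was not tested. The same 3 scalings gave 16 higher and 7 lower, 5 and 8, and 4 and 13, with medians of 0.35, -0.08 and -0.46. All genes had shares of 24.3% higher and 22.4% lower, 8.85% and 33.0%, and 2.97% and 48.2%. Leaving out krill replicates 2, 4, 5 and 7 gave 11 higher and 7 lower, where the shares of all genes were 12.7% and 19.6%. Complex II factors Sdhaf1 and Sdhaf3, which help mature Sdhb, stood at 0.90 (SE 0.17) and 0.89 (SE 0.17). For complex III, Uqcc2 and the Rieske protein translocase Bcs1l stood at 1.76 (SE 0.27) and 0.72 (SE 0.19). Complex IV factors parted most. Pet100 rose from 2080 ± 642.9 to 14170 ± 8450 (SD, n = 7 each), at 2.59 (SE 0.32), and Coa6, a copper-site factor, stood at 2.48 (SE 0.32). Oxa1l, the inner membrane insertase, fell from 791 ± 264 to 92.2 ± 82.2 (SD, n = 7 each), at -3.29 (SE 0.47), and Cox15, of heme A synthesis, stood at -2.47 (SE 0.29). For complex V, Tmem70 and Fmc1 stood at 0.77 and 0.67, and Atpaf2, which chaperones the alpha subunit, at -1.86 (SE 0.41). Without krill replicates 2, 4, 5 and 7 Sdhaf1, Sdhaf3, Uqcc2, Pet100, Coa6 and Tmem70 stood at 0.73, 0.91, 1.21, 1.82, 1.64 and 0.69. Oxa1l, Cox15 and Atpaf2 stood at -1.97, -2.22 and -0.61 there, and all 9 of these passed. Bcs1l and Fmc1 stood at 0.35 and 0.34 and did not (limma adjusted p = 0.117 and 0.0941).

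Regulators of mitochondrial gene expression also went both ways, with 2 of 12 higher, 5 lower and 5 not passing. Among all tested genes 22.9% were higher and 24.8% lower, and a difference of the 12 from these shares was not tested. Under the 3 scalings the counts were 4 higher and 5 lower, 2 and 5, and 0 and 6, and without the 4 krill arrays 2 and 4. Shares of all genes were 24.3% higher and 22.4% lower, 8.85% and 33.0%, 2.97% and 48.2%, and 12.7% and 19.6% in these fits. Tfam and Tfb1m, which maintain mitochondrial DNA and modify the ribosomal RNA of the organelle, stood at 1.36 (SE 0.20) and 1.18 (SE 0.21). The coactivators Ppargc1b and Ppargc1a, which drive mitochondrial biogenesis, stood at -2.29 (SE 0.37) and -0.81 (SE 0.21). The mitochondrial transcription factor Tfb2m, the mitochondrial RNA polymerase Polrmt and the GABP beta subunit Gabpb1 stood at -1.49 (SE 0.35), -1.26 (SE 0.32) and -0.96 (SE 0.30). Nrf1, Yy1, Gabpa, Sp1 and Esrra stood at 0.47, 0.40, 0.27, 0.02 and -0.05 and did not pass. Without krill replicates 2, 4, 5 and 7 Tfam, Tfb1m, Ppargc1b, Ppargc1a, Polrmt and Gabpb1 stood at 1.02, 0.92, -2.35, -0.66, -0.92 and -0.82 and passed, and Tfb2m stood at -0.39 and did not (limma adjusted p = 0.0769).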

How the data were processed

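Liver RNA of 14 mice, 7 per diet, was measured with 1 array per animal, with diet and replicate number read from the sample titles. The authors deposited linear signal intensity per probe set, made with MAS5 (version not given in the sources used here) per the submitters' processing notes. Across the deposited intensity table every array had nearly the same mean without the lowest and highest 2% of probe sets (499.73 to 499.8), so arrays had been scaled. The number of arrays limits the precision. Of 45101 probe sets 64 were controls, 34945 had 1 symbol in the platform annotation and 932 had several, and the rest stay unnamed here. All 48 members matched the GRCm38.p6 gene table by gene number.

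Signal was taken as log2(signal + 16), so changes of dim genes are understated. The upper 50% of probe sets by mean (22518) were kept, and the highest-mean probe set stood for each gene. The diets were compared by limma 3.58.1 under R 4.3.3 (lmFit, eBayes with trend) on all 14 arrays with no covariate, adjusted by the Benjamini-Hochberg method over 11308 genes at 0.05. A positive change means higher signal in krill livers, and standard errors are moderated ones. The spread behind each p-value is that of mice and arrays jointly. Medians and counts of lists are descriptions. For array quality, two-sided exact permutation tests ran over all 3432 assignments of arrays to diets. Tables and figures were made in Python 3.11.15 (pandas 2.3.3, numpy 2.4.6, matplotlib 3.10.9).

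Named genes were all of complex II, Cycs, up to 6 called rises and 6 called falls in each other complex, the c-ring, alpha and beta genes, isoforms of other tissues and Cox7a2l. From each other list up to 2 called genes per direction and every regulator were named. Other members named with values were chosen after their values were seen. The members and lists were chosen with earlier results of these data known. A description of protein length was planned and is not analysed here. Alternatives were other pseudocounts, scalings, signal filters and probe set rules, the replicate number as a block, spike-in level or 3'/5' index in the model, and arrays left out. The fit was also run on simulated data with independent genes and the same spread in both diets. It called 51 of 100 genes with a log2 change of 1, 94 of 100 with a change of 2 and 8 of 11108 unchanged genes. It does not show how the fit handles spread that differs between diets.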

Additional observations from a re-analysis of the deposited data

Results flagged for a closer look

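Among 92 groups of 7 arrays examined (46 members on either diet), 2 held an array whose gap to its nearest neighbour exceeded Dixon's critical value for that group size. In Sdhc the lowest control array, replicate 5, read 7352, with the next at 9608 (gap over range 0.58). In Cox4i2 the lowest control array, replicate 1, read 41.7, with the next at 87.9 (gap over range 0.584). Chance alone flags about 0.05 of such groups.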

How the results depend on the processing

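Alternatives included pseudocounts of 1 and 64, no signal filter, the upper 30% of signal and the replicate block. Another averaged the probe sets of each gene that passed the filter. All of these kept the counts of members called within 1.5 times and the complex medians within the spread between arrays. With the replicate block 25 members were higher and 7 lower, and the same-numbered arrays share only a number: same-numbered arrays correlated at -0.02 to 0.10, 0 of 7 pairs correlated over 0.1, and 1 of 7 control arrays correlated best with its own number. Averaging over probe sets left Atp5c1 at 0.34, not passing (adjusted p = 0.11 by limma). Leaving out 1 array gave 22 to 26 members higher and 6 to 8 lower, with medians of -0.88 to -0.63, 0.10 to 0.31, 0.77 to 1.08 and 0.46 to 0.69 for complexes II, III, IV and V, and Atp5g2 ranged from -0.08 without krill replicate 2 to 0.28 without krill replicate 7.

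Quantile normalization gave 13 members lower and a complex III median of -0.09, with Atp5b, Atp5g2 and Atp5g3 at -0.36, -0.06 and -0.46, where Atp5b and Atp5g3 were called lower. Centring gave medians of -1.18, -0.25, 0.49 and 0.18 for complexes II to V, with the same genes at -0.17, -0.27 and -0.30. Spike-in scaling gave 10 members higher and 13 lower, medians of -1.56, -0.64, 0.16 and -0.21, and Atp5b, Atp5g1, Atp5g2 and Atp5g3 at -0.55, -0.21, -0.65 and -0.69.

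Adding the spike-in level to the limma model left 15 members higher and 0 lower (18 positive and 0 negative at an unadjusted p under 0.05), the complex II and IV medians were -0.27 and 0.20, and Atp5a1 stood at 0.15. Adding the 3'/5' index, which does not overlap between diets, left 0 of 11308 genes called in limma (1873 at an unadjusted p under 0.05). Of the members 0 were higher and 0 lower (7 and 0 at an unadjusted p under 0.05). In that fit 41 of 46 members had a positive change, the complex II and III medians were 0.06 and 0.41, and Atp5a1, Sdhc and Sdhd stood at 0.43, 0.12 and 0.01. Without krill replicates 2, 4, 5 and 7, 1 member was lower, the complex II, III and IV medians were -0.35, 0.41 and 0.33, and Atp5a1 stood at 0.11. The cause of these moves was not tested.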
